A study of Rattus norvegicus with 183 samples.

Results

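Astrocyte genes were followed across the libraries through 10 genes chosen by name: Gfap, Aqp4, Aldh1l1, Slc1a2, Slc1a3, S100b, Gja1, Gjb6, Sox9 and Aldoc. All 10 are among the 38354 genes of the deposited table, and all 10 are among the 15536 genes whose mean log2(CPM + 1) over the libraries was at least 1, which were the genes tested. PolyA RNA was sequenced from the posterior part of the ventral tegmental area, the dopamine neuron region of the ventral midbrain, in heterogeneous stock rats, which are outbred, with 1 library for each identifier. Of 183 samples 152 have values, and the 31 that carry a note of removal were not analysed here. The labels give no treatment, genotype, sex or age. The libraries are divided here by the format of the identifier, which is hexadecimal for 88 libraries, decimal for 63 and of another form for 1. Notes in the labels also mark 5 libraries as relabelled and 12 as recovered. No label says that the format is a batch.

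Astrocytes are glial cells that take up glutamate and potassium around synapses, pass metabolites to neurons, and wrap blood vessels with flattened processes called endfeet. They are coupled to each other by gap junctions into a network. In grey matter their resting form makes much glutamate transporter and little intermediate filament, while astrocytes at the brain surface, in white matter and around larger vessels are rich in the filament protein that the gene Gfap encodes, and reactive astrocytes raise that filament too.

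The 10 genes cover several of these tasks. Gfap (Gene ID 24387, chr10:88352987-88361661 on GRCr8) encodes glial fibrillary acidic protein, the main astrocyte filament, and S100b (25742, chr20:12372345-12381159) encodes a calcium-binding protein that oligodendrocytes also make. Aqp4 (25293, chr18:6782389-6799034) encodes the water channel that is concentrated at endfeet. Aldh1l1 (64392, chr4:124617182-124663674) encodes a folate enzyme, and Aldoc (24191, chr10:63715544-63719133) encodes aldolase C, a glycolytic enzyme. Slc1a2 (29482, chr3:109460109-109590445) and Slc1a3 (29483, chr2:59482707-59557808) encode the astrocyte glutamate transporters GLT-1 and GLAST. Gja1 (24392, chr20:36302490-36315010) and Gjb6 (84403, chr15:35400147-35410649) encode the gap junction proteins connexin 43 and connexin 30. Sox9 (140586, chr10:98305744-98311250) encodes a transcription factor of the astrocyte lineage. All 10 are protein coding, and S100b is the only one whose span overlaps another annotated gene, Dip2a, which had a median of 210 CPM. The sources used here do not say whether reads were assigned by strand, so reads of S100b and Dip2a cannot be told apart with certainty.

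The 250 bases before a start in RefSeq's promoter table are shown for 3 of the genes, because Gfap and Aldh1l1 gave the highest correlation among the 10 and Aldoc ran against both. The letters are RefSeq's on GRCr8, read 5′ to 3′ on the strand of the gene, and capitals mark each match to GGGCGG (a GC box, searched on both strands). The windows are chr10:88361662-88361911 (minus strand) for Gfap, chr4:124616970-124617219 (plus strand) for Aldh1l1 and chr10:63715294-63715543 (plus strand) for Aldoc. The table's start of Aldh1l1 lies inside the gene span given above, so that the last 38 bases of its window belong to that span.
Gfap: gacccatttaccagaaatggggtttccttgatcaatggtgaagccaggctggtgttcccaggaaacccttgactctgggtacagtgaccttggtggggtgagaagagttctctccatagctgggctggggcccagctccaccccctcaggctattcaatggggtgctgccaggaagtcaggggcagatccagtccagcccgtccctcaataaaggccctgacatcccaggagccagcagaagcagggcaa
Aldh1l1: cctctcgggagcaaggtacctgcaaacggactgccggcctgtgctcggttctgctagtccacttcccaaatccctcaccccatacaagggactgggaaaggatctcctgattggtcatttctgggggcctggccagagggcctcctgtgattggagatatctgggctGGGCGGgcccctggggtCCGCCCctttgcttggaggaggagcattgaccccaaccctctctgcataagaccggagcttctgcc
Aldoc: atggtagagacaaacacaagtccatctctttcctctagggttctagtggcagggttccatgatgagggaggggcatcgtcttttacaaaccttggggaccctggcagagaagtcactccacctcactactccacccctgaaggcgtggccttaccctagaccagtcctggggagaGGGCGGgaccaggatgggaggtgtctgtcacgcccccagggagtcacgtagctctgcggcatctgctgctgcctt
The GC box stands at -83 and -66 from the table's start of Aldh1l1, the second of them on the other strand, and at -75 from that of Aldoc, and 30.5% of the 33469 windows of this length in the table hold it. The other letters searched on both strands were TTCNNNGAA for STAT factors, found in 7.67% of all windows, TTGGCA for nuclear factor I (12.0%), ACAAT for SOX factors (30.0%) and a TATAAA box (12.9%), and none of the 3 printed windows holds them. Among the other genes in the table, TTGGCA is found before Slc1a3, S100b and Gjb6. The windows of Gfap, Aldh1l1 and Aldoc have 57.6%, 60.8% and 58% G or C, against a median of 51.2% over all windows. A match is a description of these letters and no evidence that a factor binds there.

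Of the 152 libraries, 11 had almost no Th, the gene of the rate-limiting enzyme of dopamine synthesis: Th lay between 1.33 and 3.47 CPM in these 11 and between 577 and 3934 CPM in the other 141. The 11 libraries without Th (1 hexadecimal, 10 decimal) had 1833 to 2040 CPM of Slc17a7, the vesicular glutamate transporter gene typical of cortex, while its median was 4.02 CPM among libraries with Th, of which 6 exceeded 100 CPM. They also had less of the myelin gene Mbp, with 633 to 2432 CPM against 8524 to 28700 CPM. Because they stand apart, every correlation below is over the 141 libraries with Th (87 hexadecimal, 53 decimal, 1 other). Libraries held 15.2 to 57.2 M estimated counts (M for 1e6). Values are counts per 1000000 of a library's total (CPM), so a gene's value is a share of the library, and in bulk tissue fewer astrocytes and less of a transcript per astrocyte cannot be told apart. Levels are not compared between genes, since counts grow with transcript length.

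In the 11 libraries without Th, 8 of the 10 genes had a lower median than in the libraries with Th, and the 2 glutamate transporter genes had a higher one. These levels are a description with no test, because the libraries were divided by a measured value. Gfap had 165 CPM at the lowest, 256 at the median and 284 at the highest in libraries without Th, against 209, 1204 and 4352 CPM in libraries with Th. Its ranges overlapped, with 3 of the 11 libraries below every library with Th. S100b had 835, 992 and 1257 CPM (lowest, median and highest) in libraries without Th, against 1734, 2255 and 3664.4 CPM with Th, and the ranges did not overlap. Aqp4 had 270, 311 and 338 CPM without Th, against 443, 1088 and 2382 CPM with Th. The water channel gene thus had separate ranges too. Aldh1l1 had 16.0, 18.5 and 23.1 CPM without Th, against 21.4, 53.5 and 165 CPM with Th, and 10 of the 11 libraries lay below every library with Th. Aldoc had 565, 617 and 701 CPM without Th, against 953, 1243 and 1988 CPM with Th. The aldolase gene had no overlap between the ranges.

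The glutamate transporter genes lay the other way. Slc1a2 had 2528, 2775 and 3556 CPM in libraries without Th, against 961, 1411 and 2624 CPM in libraries with Th, and 8 of the 11 libraries were above every library with Th. Slc1a3 had 510, 553 and 661 CPM without Th, against 183, 371 and 500.5 CPM with Th, with no overlap. Gja1 and Sox9 were closer between the classes. Gja1 had 289, 321 and 356 CPM without Th, against 238, 376.1 and 577 CPM with Th, so that all 11 libraries lay inside the range of the others. Sox9 had 19.0, 24.5 and 27.9 CPM without Th, against 14.8, 29.5 and 77.9 CPM with Th, all inside. Gjb6 had 22.9, 29.2 and 41.6 CPM without Th, against 29.5, 56.3 and 134 CPM with Th, and 6 of the 11 were below that range. Scaling by the median of ratios in place of the total raises the libraries without Th by a median of 0.13 on the log2 scale and turns none of these 10 directions, with the medians of Gja1 closest (351 CPM in libraries without Th and 374 CPM in libraries with Th). Under that scaling all 11 libraries without Th lay above every library with Th in Slc1a2.

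**Figure D1:**
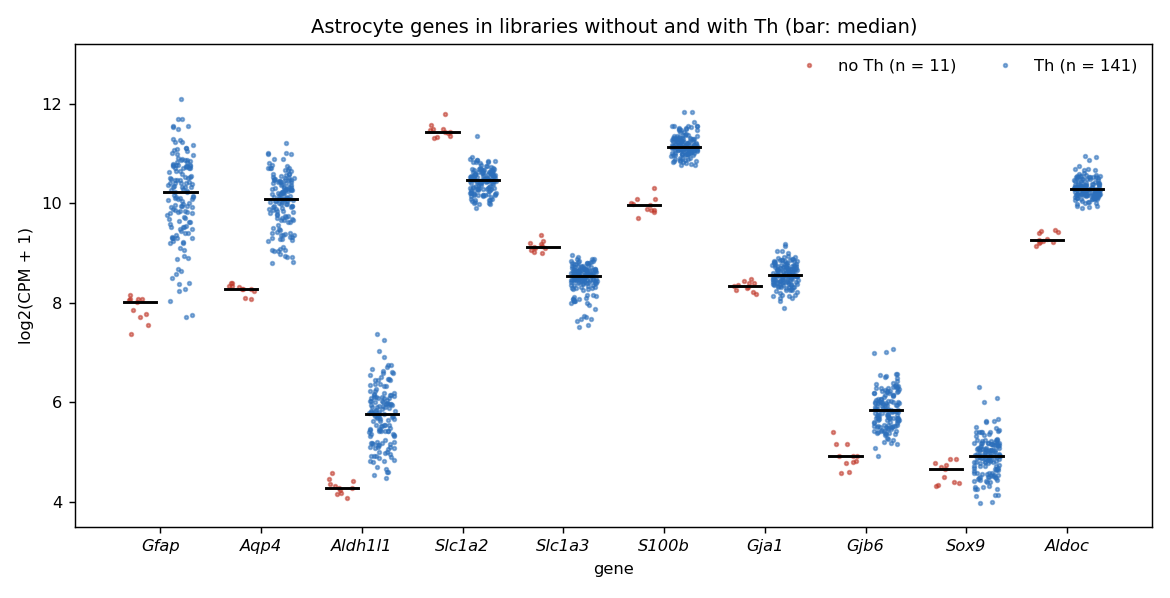
Level of each of the 10 genes in every library, as log2(CPM + 1), for the 11 libraries without Th (red) and the 141 with Th (blue), with a bar at the median. Slc1a2 and Slc1a3 have their higher median in the libraries without Th, and Gfap, Aqp4 and Aldh1l1 spread most among the libraries with Th.

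Among the libraries with Th, the 10 genes differed in how far they varied. The SD of log2(CPM + 1) over the 141 libraries was 0.85 for Gfap, higher than that of 97.8% of the genes tested, 0.59 for Aldh1l1 (93.7%) and 0.54 for Aqp4 (92.0%). Sox9 and Gjb6 followed with 0.40 (83.1%) and 0.39 (81.8%). Slc1a3 had 0.29 (61.4%), Slc1a2 0.24 (41.8%), Gja1 0.23 (39.3%), S100b 0.20 (29.5%) and Aldoc 0.19 (25.6%). The single hexadecimal library with the most Gfap (4352 CPM) also had the most Aqp4 (2382 CPM) and Aldh1l1 (165 CPM) of all 141, while it ranked 66th for Slc1a2 and 62nd for Gjb6. A decimal library had the lowest Gfap (209 CPM) and the lowest Aldh1l1 (21.4 CPM), with rank 133 for Aqp4. A different library, with decimal identifier, had the most Slc1a2 (2624 CPM) and the most Slc1a3 (500.5 CPM), and its 673 CPM of Gfap ranked 114th.

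The 10 genes did not rise and fall as a single set. Of their 45 pairs, 23 were positively and 5 negatively correlated and 17 were not called (Pearson r of log2(CPM + 1), two-sided permutation test with 100000 resamples, Benjamini-Hochberg adjusted p under 0.05 over the 45 pairs, n = 141). Spearman's rho called 21 and 5, and the unadjusted p was under 0.05 for 28. The median r was 0.22, and 27 of the 28 called pairs had the same sign in both identifier formats. limma's slope, adjusted over all other genes tested rather than over the pairs and with identifier format as a covariate (n = 140), called the same 23 and 5. These counts are to be read against all 15535 other genes tested, of which such slopes called from 3660 (on Gjb6) to 12159 (on Aqp4). As shares, these were 13.9% higher and 9.68% lower on Gjb6, and 55.2% and 23.0% on Aqp4. The share of 28 called among 45 pairs lies within that range, so the number called is not a trait of the 10 genes. The smallest p that the resamples can give is 1e-05, and 2.50e-05 is its adjusted value over the pairs. A first principal component of the 10 genes held 43.3% of their variance and a second 17.3%, the first with its largest weights on Aqp4, Aldh1l1, Gfap and Gja1, and the second on Aldoc and Gjb6.

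**Figure D2:**
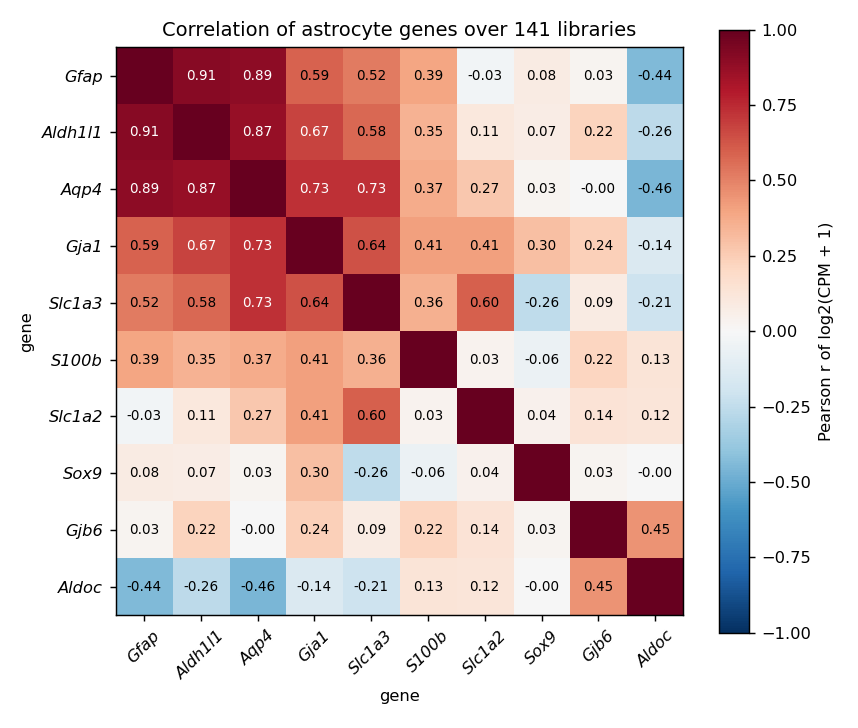
Pearson r of log2(CPM + 1) for every pair of the 10 genes over the 141 libraries with Th, from -1 (blue) to 1 (red). Gfap, Aldh1l1 and Aqp4 form the corner with r from 0.87 to 0.91, and Aldoc is blue against all 3.

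The filament gene Gfap, the folate enzyme gene Aldh1l1 and the water channel gene Aqp4 moved together. Gfap and Aldh1l1 had r = 0.91 (rho 0.92), with 0.90 when the 2 libraries farthest from the median were left out, 0.92 in hexadecimal and 0.88 in decimal libraries. Gfap and Aqp4 had r = 0.89 (rho 0.90), with 0.89 without those 2 libraries, 0.91 in hexadecimal and 0.88 in decimal libraries. Aqp4 and Aldh1l1 had r = 0.87 (0.89 in hexadecimal and 0.83 in decimal libraries). The adjusted p was 2.50e-05 for each of the 3 pairs (permutation test). Among the 15535 other genes tested, Aldh1l1 ranked 6th and Aqp4 10th in correlation with Gfap. Per SD of Gfap, Aldh1l1 was higher by 0.54 ± 0.02 and Aqp4 by 0.48 ± 0.02 on the log2 scale (limma, ± SE, adjusted p 2.15e-50 and 5.57e-49 over all genes).

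GLAST and connexin 43 went with this trio less closely. Slc1a3 had r = 0.73 with Aqp4 (0.75 in hexadecimal and 0.60 in decimal libraries), 0.58 with Aldh1l1 and 0.52 with Gfap. Gja1 had r = 0.73 with Aqp4 (0.78 and 0.68 in the formats), 0.67 with Aldh1l1, 0.64 with Slc1a3 and 0.59 with Gfap (0.68 in hexadecimal and 0.42 in decimal libraries). The adjusted p of these 7 pairs was 2.50e-05 by permutation test. With Foxj1, a gene of ependyma, as a covariate, the calls of Gfap with Slc1a3 (r = 0.15, permutation test, adjusted p 0.128) and with Gja1 (0.17, adjusted p 0.0875) were lost. The slopes of Gfap, Aldh1l1, Aqp4 and Slc1a3 on Gja1 differed between identifier formats, as did the slopes on Gja1 of 30.1% of all genes (limma, adjusted p under 0.05).

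The glutamate transporters correlated with each other, and the correlation of the GLT-1 gene with the filament gene was called only under some alternatives. Slc1a2 and Slc1a3 had r = 0.60 (rho 0.62), with 0.57 without the 2 farthest libraries, 0.64 in hexadecimal and 0.46 in decimal libraries (permutation test, adjusted p 2.50e-05). Slc1a2 and Gja1 had r = 0.41 with the same adjusted p by permutation test. With Gfap, Slc1a2 had r = -0.03 (rho 0.01), with 0.07 in hexadecimal and -0.26 in decimal libraries (permutation test, adjusted p 0.762), and Slc1a2 ranked 10798th among all genes in correlation with Gfap. The pair was called negative under median-of-ratios scaling (r = -0.25, permutation test, adjusted p 0.00696) and with Foxj1 as a covariate (-0.25, adjusted p 0.00784). With Aldh1l1 Slc1a2 had 0.11 (permutation test, adjusted p 0.276), and 0.23 with Col1a1, a collagen gene of fibroblasts, as a covariate (adjusted p 0.0121). With Aqp4 it had 0.27 (permutation test, adjusted p 0.00290), a value that was 0.34 in hexadecimal and 0.04 in decimal libraries and 0.05 under median-of-ratios scaling. The slopes of Slc1a3 and Aldoc on Slc1a2 differed between identifier formats, as did those of 28.4% of all genes, and so did the slope of S100b on Slc1a3, as did those of 28.3% of all genes (limma).

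S100b took a middle place, and Gjb6 and Sox9 had low correlations with the trio. S100b had r = 0.41 with Gja1, 0.39 with Gfap, 0.37 with Aqp4, 0.36 with Slc1a3 and 0.35 with Aldh1l1 (permutation test, adjusted p at most 0.000112 for the 5 pairs). Under median-of-ratios scaling the calls of S100b with Gfap (r = 0.18), Aqp4 (0.13), Aldh1l1 (0.12) and Slc1a3 (0.14) were lost, and with Foxj1 as a covariate so were those with Gfap (0.16), Aqp4 (0.12) and Aldh1l1 (0.03). With Mbp as a covariate S100b instead had higher values. They were 0.72 with Gfap, 0.73 with Aqp4, 0.67 with Aldh1l1 and 0.54 with Slc1a3 (permutation test, adjusted p 2.50e-05 each). With Slc1a2 it had 0.03, not called (permutation test, adjusted p 0.762). The 2 connexin genes had r = 0.24 with each other (0.24 in hexadecimal and 0.23 in decimal libraries, permutation test, adjusted p 0.00882), a call that was lost in decimal libraries and with Col1a1 (0.08, adjusted p 0.444) or Foxj1 (0.15, adjusted p 0.128) as a covariate. Gjb6 had its highest r with Aldoc, at 0.45 (rho 0.44), with 0.40 in hexadecimal and 0.52 in decimal libraries (permutation test, adjusted p 2.50e-05), against 0.03 with Gfap and -0.005 with Aqp4. With Aldh1l1 Gjb6 had 0.22 and with S100b 0.22 (permutation test, adjusted p 0.0154 each). With Col1a1 as a covariate Gjb6 was called negative with Gfap (-0.45) and Aqp4 (-0.36), as with Foxj1 (-0.25 and -0.31), and its calls with Aldh1l1 (-0.15 and 0.10) and S100b (0.18 and 0.16) were lost with either. Sox9 had 0.30 with Gja1 (rho 0.37, permutation test, adjusted p 0.000771). With Slc1a3 it had r = -0.26 (permutation test, adjusted p 0.00401), but rho was -0.04, and r was -0.31 in hexadecimal and 0.06 in decimal libraries. With the other 7 genes Sox9 lay between -0.06 and 0.08, none of them called.

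Aldoc ran against the trio. It had r = -0.44 with Gfap (-0.44 in hexadecimal and -0.45 in decimal libraries) and -0.46 with Aqp4, each with an adjusted p of 2.50e-05 by permutation test. With Aldh1l1 it had -0.26 (permutation test, adjusted p 0.00433) and with Slc1a3 -0.21 (permutation test, adjusted p 0.0209), calls that were lost in decimal libraries (-0.27 and -0.13) and with Mbp (-0.06 and -0.09), Col1a1 (0.02 and -0.11) or Foxj1 (-0.15 and -0.11) as a covariate. The call with Slc1a3 was also lost in hexadecimal libraries (-0.23). Its r of 0.12 with Slc1a2 was not called (permutation test, adjusted p 0.215) and was -0.06 in hexadecimal and 0.46 in decimal libraries, and it was called under median-of-ratios scaling (0.22, adjusted p 0.0192). With S100b Aldoc had 0.13 (permutation test, adjusted p 0.175), called under that scaling (0.24) and with Col1a1 (0.20) or Foxj1 (0.23) as a covariate.

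**Figure D3:**
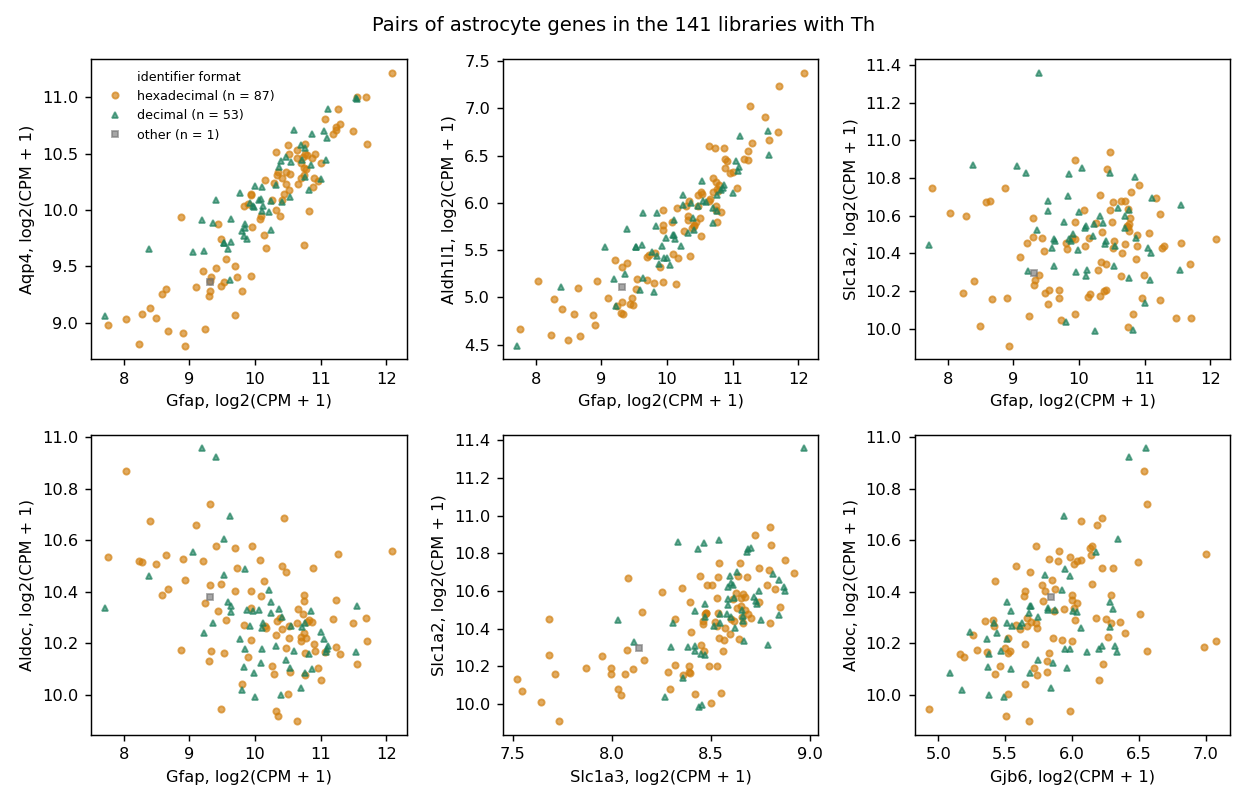
Log2(CPM + 1) of 6 pairs of astrocyte genes in the 141 libraries with Th, with hexadecimal (circles), decimal (triangles) and other (square) identifiers. Aqp4 and Aldh1l1 follow Gfap closely, Slc1a2 forms a cloud with no slope against Gfap but follows Slc1a3, and Aldoc falls with Gfap and rises with Gjb6.

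The 10 genes were then set against 25 lists of other genes (333 genes, 314 of them tested) that cover further astrocyte genes, neurons, vessels, meninges and other glia. Of the 3140 pairs of an astrocyte gene with a listed gene, 2004 passed the permutation test on r and 1964 that on rho (Benjamini-Hochberg over the 3140 pairs). Each r of a listed gene given below had an adjusted p of 2.85e-05 by that permutation test, its smallest value, unless another p or "not called" stands beside it. Counts of listed genes use limma's slope on the astrocyte gene (n = 140, identifier format as covariate, adjusted p under 0.05 over all genes), and are to be read against the share of all genes tested that was called. That share was large for most of the 10 genes and its split depended on scaling, so the split under median-of-ratios scaling stands beside it. For the other alternatives the number of all genes called is given at the end where it moved most.

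With Gfap, 53% of all genes tested were called higher and 20.8% lower (36.1% and 34.1% under median-of-ratios scaling). Of the other 9 astrocyte genes 5 were higher and 1 lower. Of the 26 listed genes for intermediate filaments and reactive astrocytes 19 were tested, and Serpina3n on that list had a median of 0 CPM in libraries with Th. Of the 19 tested genes 14 were higher and 1 lower (median r 0.55, against 0.21 over all genes). Cd44, a hyaluronan receptor gene, had r = 0.94 with Gfap, the highest of all genes tested, with 0.95 in hexadecimal and 0.92 in decimal libraries, and lay between 2.68 and 41.4 CPM. The filament genes Synm and Vim had r = 0.87 and 0.82. Slc7a11, the cystine-glutamate exchanger gene, had 0.88, and the apolipoprotein gene Apoe had 0.84. Other astrocyte genes went both ways with Gfap. Of 18 tested transporter and channel genes 9 were higher and 5 lower (median r 0.12). Of 22 metabolism genes 9 were higher and 7 lower (median r 0.11). Named next are genes that ran against Gfap. Slc7a10, a transporter gene for small neutral amino acids, had r = -0.80 (-0.81 in hexadecimal and -0.78 in decimal libraries), the lowest of all genes tested. Glul, the glutamine synthetase gene, had -0.57 and Kcnj10, a gene of the potassium channel that buffers potassium in astrocytes, had -0.56. Aqp4 and Aldh1l1 had the same signs with these genes, with r = -0.83 and -0.70 for Slc7a10 and 0.89 and 0.90 for Cd44.

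Most pan-neuron genes were lower where the trio was higher, and genes of single neuron classes went both ways. Of 20 pan-neuron genes 14 were lower and 4 higher with Gfap (median r -0.59), 15 and 4 with Aqp4 (median r -0.57) and 15 and 4 with Aldh1l1 (median r -0.55). With Aqp4 55.2% of all genes were called higher and 23.0% lower (40.0% and 36.2% under median-of-ratios scaling), and with Aldh1l1 53.7% and 21.5% (36.5% and 34.9%). Snap25, a gene of the vesicle fusion machinery, had r = -0.71 with Gfap, -0.71 with Aqp4 and -0.64 with Aldh1l1. Thy1, a neuronal surface protein gene, had -0.69, -0.86 and -0.66. Syt1, the calcium sensor gene of synaptic vesicles, was among the 4 that were higher, with 0.46, 0.46 and 0.34 (permutation test, adjusted p 0.000174 for Aldh1l1). Under median-of-ratios scaling 16 pan-neuron genes were lower with Gfap and 1 was higher. Of 17 dopamine neuron genes 7 were higher and 1 lower with Gfap, 8 and 3 with Aqp4 and 5 and 3 with Aldh1l1, with median r of 0.08, 0.05 and 0.03. That scaling moved these counts to 5 and 3, 6 and 6, and 3 and 7, and in decimal libraries they were 1 and 1, 1 and 1, and none and 1. Of all genes 7593, 7262 and 6571 were called in decimal libraries, against 11463, 12159 and 11679 in the main fits. Of 9 GABA neuron genes 3 were higher and 3 lower with Gfap, and of 6 glutamate neuron genes 3 were higher and 1 lower.

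Genes of vessels and meninges were higher with the trio. All 9 tested genes of meningeal fibroblasts were higher with Gfap (median r 0.77), with Aqp4 (0.68) and with Aldh1l1 (0.80), in both identifier formats and under median-of-ratios scaling. Lum, a gene of fibroblast matrix, had r = 0.86 with Gfap, and Col1a1, a gene of the main fibrillar collagen, had 0.80 with Gfap, 0.68 with Aqp4 and 0.83 with Aldh1l1. Of 15 mural cell genes 11 were higher and none lower with Gfap (median r 0.61) and 12 with Aldh1l1 (0.72), and Myh11, the myosin gene of smooth muscle, had 0.75 and 0.82. Of 20 endothelial genes 16 were higher and 2 lower with Gfap (median r 0.39), which became 12 and 3 under median-of-ratios scaling. Tek, an endothelial receptor gene, had r = 0.58 with Gfap and 0.76 with Aqp4. Mfsd2a, a lipid transporter gene of the blood-brain barrier, was among the 2 that were lower, with -0.65 with Gfap and -0.70 with Aqp4. Of 10 endfoot scaffold genes 8 were higher with Gfap and 7 with Aqp4, and Dmd, the dystrophin gene, whose product belongs to the complex that holds the water channel at endfeet, had 0.83 with Aqp4 and 0.62 with Gfap.

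Markers of meninges and of ependyma moved with the trio, and the correlations were computed again with 1 marker of each as a covariate. The summed level of the 9 meningeal genes in the file was 98.0 to 319.5 CPM in libraries without Th and 61.1 to 4161 CPM in libraries with Th, and no gene was at 0 throughout. Foxj1, the regulator gene of motile cilia in ependyma, had r = 0.84 with Gfap, 0.83 with Aqp4 and 0.89 with Aldh1l1, and the summed level of the 10 ependymal genes in the file was 25.5 to 39.0 CPM without Th and 28.8 to 126 CPM with Th, with Tmem212 at a median of 0 in the libraries without Th. Of 8 tested ependymal genes 7 were higher and none lower with each of the trio. Their median r was 0.51, 0.57 and 0.51, so Foxj1 followed the trio more closely than its list did. With Col1a1 as a covariate the trio kept r = 0.80 for Gfap and Aqp4, 0.73 for Gfap and Aldh1l1 and 0.75 for Aqp4 and Aldh1l1. With Foxj1 as a covariate these were 0.65, 0.64 and 0.50. With Col1a1 as a covariate 1 mural cell gene was higher and 1 lower with Gfap, and 14 pan-neuron genes were lower and 1 higher. Slopes on Gfap were called for 7168 of all genes with that covariate, against 11463 without it. Both covariates were chosen after the values had been seen.

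**Figure D4:**
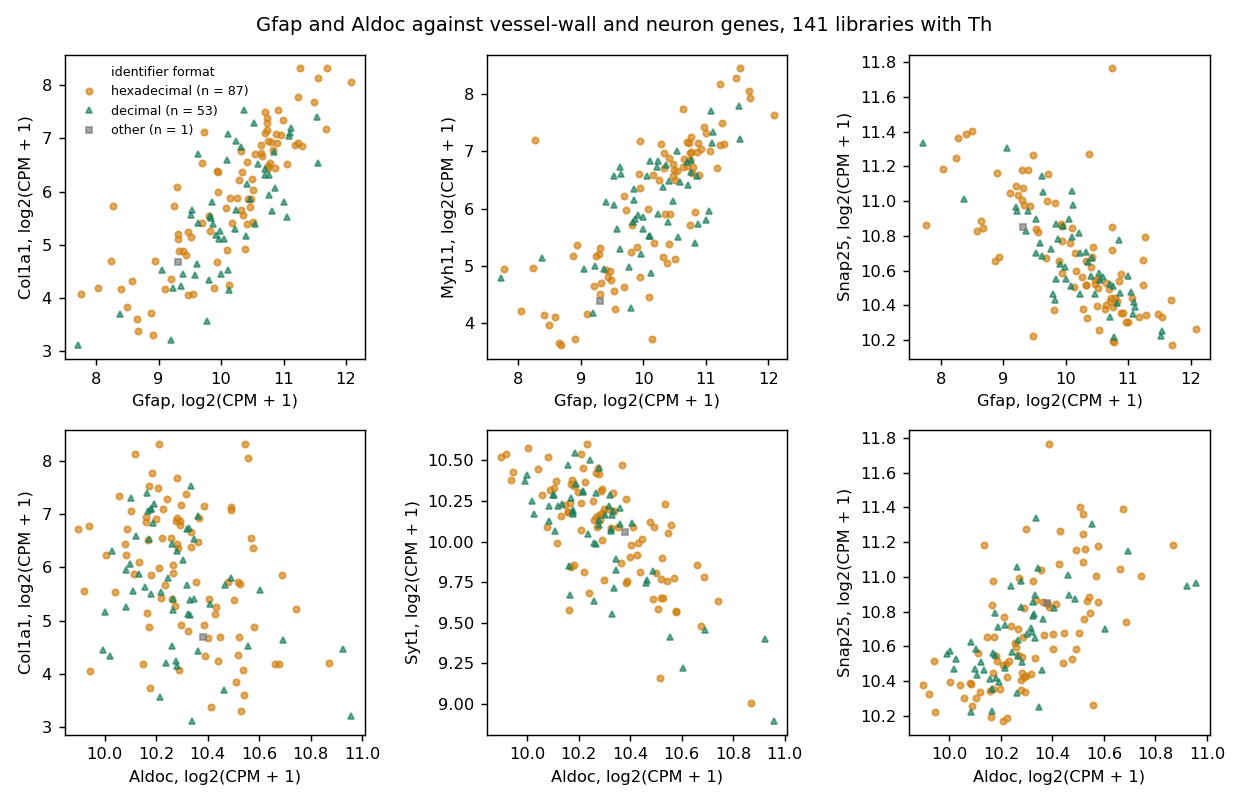
Gfap (upper row) against Col1a1, Myh11 and Snap25, and Aldoc (lower row) against Col1a1, Syt1 and Snap25, as log2(CPM + 1) in the 141 libraries with Th, marked by identifier format. Col1a1 and Myh11 rise and Snap25 falls with Gfap, while Snap25 rises and Syt1 falls with Aldoc.

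Myelin genes were lower with Gfap in part. Of 13 oligodendrocyte genes 11 were lower and 1 higher with Gfap (median r -0.29), but 4 and none in decimal libraries and none of either with Col1a1 as a covariate. Mbp had r = -0.47 with Gfap, -0.51 with Aqp4 and -0.48 with Aldh1l1, and -0.19, -0.17 and -0.25 in decimal libraries, where none of the 3 was called. With Mbp as a covariate 9 meningeal genes were higher with Gfap, and 14 pan-neuron genes were lower and 1 higher.

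The glutamate transporters went with many astrocyte receptor and signalling genes. With Slc1a2, 31.9% of all genes were called higher and 22.7% lower (21.3% and 20.1% under median-of-ratios scaling), and with Slc1a3 54.1% and 22.4% (37.2% and 33.9%). Of 24 astrocyte receptor and signalling genes 17 were higher and none lower with Slc1a2 (median r 0.38, against 0.05 over all genes), which held as 16 and none under median-of-ratios scaling. With Slc1a3 18 were higher and 2 lower (median r 0.42, against 0.23), but 8 and none in decimal libraries. With the trio the same list had 15 higher and 6 lower for Gfap, 17 and 4 for Aqp4 and 15 and 5 for Aldh1l1. Of the 19 filament and reactive genes 4 were higher and 4 lower with Slc1a2, and 13 and 2 with Slc1a3. Slc4a4, the sodium bicarbonate cotransporter gene, had r = 0.73 with Slc1a2 and 0.84 with Slc1a3, and Kcnj10 had 0.50 with Slc1a2. Ptch1, the Hedgehog receptor gene, had 0.73 with Slc1a2, Ednrb, an endothelin receptor gene, had 0.68, and Fgfr3, a fibroblast growth factor receptor gene, had 0.70 with each transporter. None of the 9 meningeal genes was called with Slc1a2, and all 9 were higher with Slc1a3, of which 3 passed in decimal libraries. Of the pan-neuron genes 9 were lower and 2 higher with Slc1a2 (median r -0.10), a balance that median-of-ratios scaling moved to 3 lower and 5 higher. With Slc1a3, 15 were lower and 4 higher.

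With S100b, 28.5% of all genes were called higher and 10.4% lower (23.1% and 24.0% under median-of-ratios scaling). All 11 microglia genes were higher (median r 0.52, against 0.08 over all genes), and 10 of them under that scaling. C1qa, a complement gene of microglia, had r = 0.70, with 0.65 in hexadecimal and 0.77 in decimal libraries, and Aif1, a calcium-binding protein gene of microglia, had 0.65. Of 22 astrocyte metabolism genes 14 were higher and none lower. Of 20 pan-neuron genes 13 were lower and none higher, which became 7 and none under median-of-ratios scaling. Of 13 oligodendrocyte genes 7 were higher, against 4 without the 17 relabelled or recovered libraries and 3 in hexadecimal libraries. S100b had r = 0.40 with Mbp (permutation test, adjusted p 3.64e-05 over 80 tests against technical and tissue measures), and Gfap, Aqp4 and Aldh1l1 had negative values with it. Higher microglia genes were not particular to S100b. Of the 11, 10 were higher with Gfap, 9 with Aldh1l1 and 8 each with Aqp4, Slc1a3 and Gja1, and none was lower with these. More of all genes were called higher with these 5 than with S100b.

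With Gja1, 45.1% of all genes were called higher and 18.3% lower (20.3% and 19.7% under median-of-ratios scaling). Astrocyte lineage transcription factor genes were higher in 16 of 21 cases and lower in 1 (median r 0.36, against 0.14 over all genes), and receptor and signalling genes in 17 of 24 and none lower. These counts were 14 and 1, and 16 and none, under median-of-ratios scaling. Ednrb had r = 0.74 and Slc4a4 0.78. As with the trio, most pan-neuron genes were lower with Gja1, 15 of 20, and 3 were higher (median r -0.50). Of 20 endothelial genes 16 were higher and 2 lower (0.41), and of 15 mural cell genes 11 were higher and none lower (0.43). All 9 meningeal genes were higher with Gja1, but none passed in decimal libraries and none with Foxj1 as a covariate.

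With Gjb6, 13.9% of all genes were called higher and 9.68% lower (17.4% and 17.0% under median-of-ratios scaling). Astrocyte metabolism genes were higher in 16 of 22 cases and lower in 2 (median r 0.25, against 0.003 over all genes), and 8 of 9 meningeal genes were higher (median r 0.39), of which 2 passed in decimal libraries. Slc13a3, a dicarboxylate transporter gene, had r = 0.71 with Gjb6, and the glycogen phosphorylase gene Pygm had 0.55. Gjb2, the gene of connexin 26, had 0.54. Dopamine neuron genes were lower in 14 of 17 cases and higher in none (median r -0.28), with 16 and none under median-of-ratios scaling, 8 and none in hexadecimal and 6 and none in decimal libraries. Slc18a2, the vesicular monoamine transporter gene, had -0.37.

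With Sox9, 10.0% of all genes were called higher and 28.3% lower (21.7% and 21.9% under median-of-ratios scaling). Lineage transcription factor genes were higher in 10 of 21 cases and lower in 1, also under that scaling, against a median r of -0.08 over all genes. Nfix, a nuclear factor I gene, had r = 0.71 with Sox9, the highest of all genes tested, with 0.67 in hexadecimal and 0.76 in decimal libraries, and Nfia had 0.58 and Sox2 0.59. Glucocorticoid response genes were lower in 7 of 9 cases and higher in none (median r -0.39), with 6 and 1 under median-of-ratios scaling and 2 and none in decimal libraries. Pdk4, a kinase gene that restrains pyruvate oxidation, had -0.60, and Tsc22d3, the gene of a leucine zipper protein induced by glucocorticoids, had -0.46.

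With Aldoc, 21.8% of all genes were called higher and 40.1% lower (34.3% and 36.9% under median-of-ratios scaling). Dopamine neuron genes were lower in 16 of 17 cases and higher in none (median r -0.36, against -0.10 over all genes), and in 11 and 1 under median-of-ratios scaling. En2, a midbrain transcription factor gene, had r = -0.64 with Aldoc (-0.57 in hexadecimal and -0.79 in decimal libraries) and Slc18a2 had -0.55. Pan-neuron genes went both ways, with 14 of 20 higher and 5 lower: Snap25 had 0.60 and Thy1 0.58, while Syt1 had -0.73. All 9 meningeal genes were lower (median r -0.31), though only 4 passed in decimal libraries and 1 with Mbp as a covariate, and with Col1a1 as a covariate 3 of the other 8 were higher and 1 lower. Oligodendrocyte genes were higher in 9 of 13 cases and lower in none, 3 of them in decimal libraries, and Mbp had r = 0.44. Slc7a10, Glul and Kcnj10, named above as running against Gfap, had 0.67, 0.61 and 0.58 with Aldoc, and Pygm had 0.79, the highest of all genes tested. Of 18 astrocyte transporter and channel genes 11 were higher and 3 lower with Aldoc, and of 22 metabolism genes 12 and 3. Of 24 receptor and signalling genes 9 were higher and 10 lower.

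**Figure D5:**
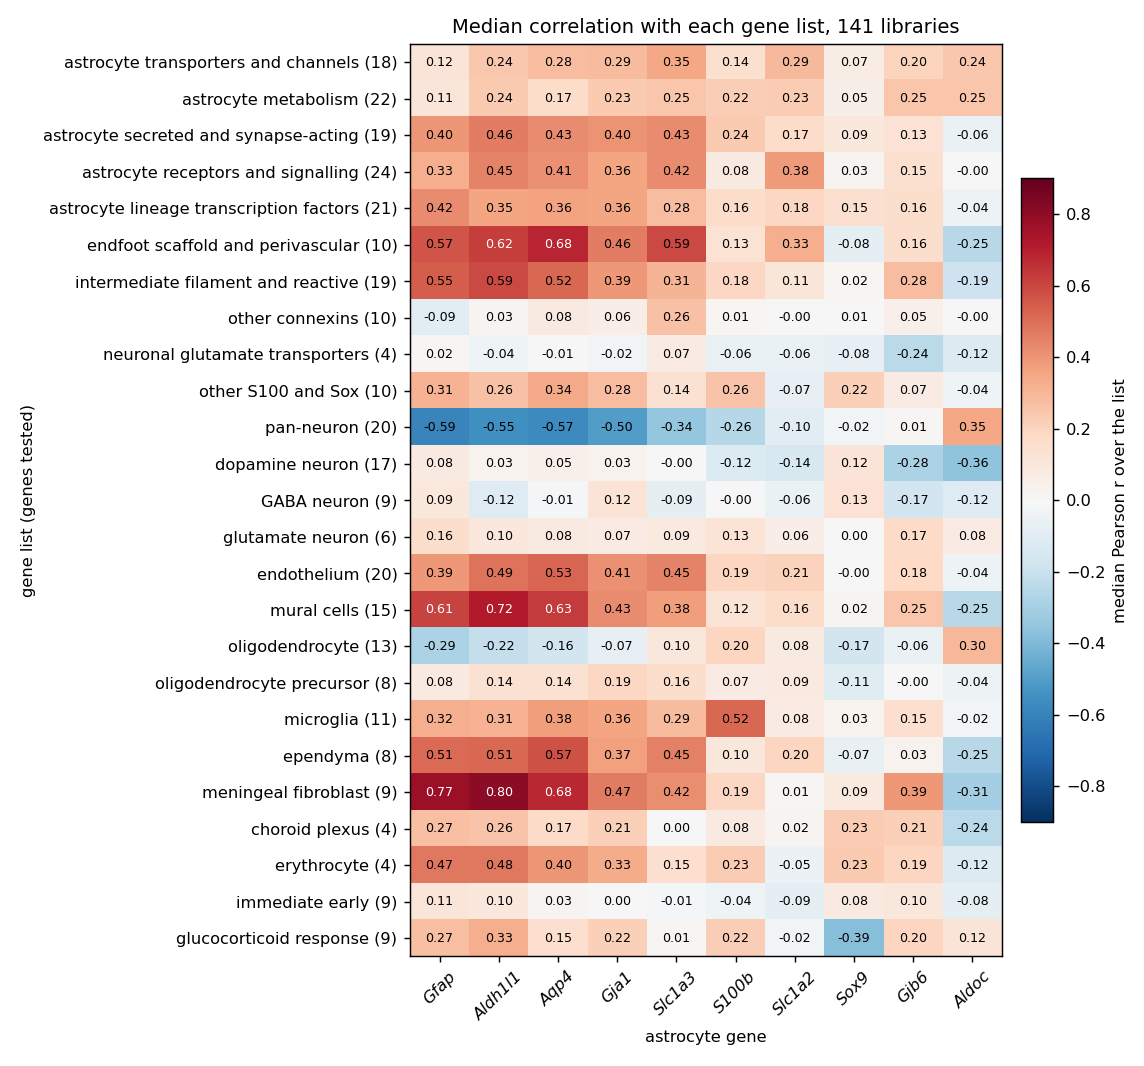
Median Pearson r of each astrocyte gene (columns) with the tested genes of each list (rows, number of genes in brackets) over the 141 libraries with Th. Gfap, Aldh1l1 and Aqp4 are red with meningeal, mural and endfoot lists and blue with pan-neuron genes, and Aldoc has the opposite colours in those rows.

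Beyond the lists, the genes most like each astrocyte gene were named by Pearson r over the 141 libraries among genes with the same sign in both identifier formats, as a description with no test. Those nearest to Gfap after Cd44 were Mamdc2 (0.93), Lcat, a cholesterol-esterifying enzyme gene (0.92), Pgm5 (0.92) and Itgb4, an integrin gene (0.91). Aqp4 had Add3, an adducin gene (0.94), Cyp7b1, an oxysterol hydroxylase gene (0.93), and the bone morphogenetic protein receptor genes Bmpr1b and Bmpr1a (0.90 each) nearest. Aldh1l1 had Slc12a4, a potassium-chloride cotransporter gene (0.94), and Itgb4 (0.92). The genes nearest to Slc1a2 had lower values, led by Marf1 (0.76), and those nearest to Slc1a3 were Gabrg1, a GABA-A receptor subunit gene, Klhl5 and Sfxn5 (0.89).

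The remaining genes had likeness lists of their own. S100b was nearest to Rnase4, a ribonuclease gene (0.80), and to Abhd3. Gja1 was nearest to Aldh6a1, a mitochondrial dehydrogenase gene (0.80), and Slc4a4. Gjb6 was nearest to Nbl1, a secreted antagonist gene of bone morphogenetic proteins (0.71), and to Slc13a3 (0.71). At the other end were Sult4a1, a sulfotransferase gene of neurons, with Aqp4 (-0.87), and Mapre3, a microtubule end-binding gene, with Slc1a3 (-0.90).

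Between identifier formats 3 of the 10 genes differed, where 14.3% of all genes tested were called higher and 23.7% lower in hexadecimal than in decimal libraries. Sox9 had a median of 30.4 CPM in hexadecimal and 27.5 CPM in decimal libraries, a hexadecimal minus decimal difference of 0.19 ± 0.07 on the log2 scale (limma, ± SE, adjusted p 0.0226 over all genes). Slc1a3 was lower in hexadecimal libraries, with a difference of -0.15 ± 0.05 (limma, adjusted p 0.0129) and medians of 362.3 CPM in hexadecimal and 384 CPM in decimal libraries. Slc1a2 was lower in hexadecimal libraries too, with a difference of -0.10 ± 0.04 (limma, adjusted p 0.0437), medians of 1390 CPM in hexadecimal and 1441 CPM in decimal libraries, and this call was lost without the 6 libraries with over 100 CPM of Slc17a7 (adjusted p 0.103). The ranges of the 2 formats overlapped for all 3 genes. The other 7 genes were not called, with Gfap at -0.02 ± 0.15 (limma, adjusted p 0.930). With Col1a1 as a covariate 3 of these 7 were called lower in hexadecimal libraries, with differences of -0.25 ± 0.07 for Aqp4 (limma, adjusted p 0.00114), -0.15 ± 0.06 for Aldh1l1 (adjusted p 0.0202) and -0.20 ± 0.09 for Gfap (adjusted p 0.0483).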

How the data were processed

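Gene expression in polyA RNA from 152 libraries was analysed. The deposited values are on a log2 scale. They were taken from their properties as log2(estimated count + 1) from kallisto 0.48, named in the submitters' processing notes: 0 stays 0, and of the back-transformed values below 100 a share of 55.7% is whole to within 0.001. The sources used here name no genome build, and positions were set beside GRCr8, where 38272 symbols match.

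Values were back-transformed, divided by the library's total and multiplied by 1000000 (CPM), and given as log2(CPM + 1). Genes with a mean of at least 1 were tested, all 10 astrocyte genes among them. No column of values was left unmapped. Totals were 15.2 to 57.2 M (1e6) per library (median 24.3), so 1 CPM is at least 15.2 counts. PCR duplicates and assignment error are not covered by these depths.

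Correlations are Pearson's r and Spearman's rho with two-sided permutation tests (100000 resamples, Python 3.11.15, scipy 1.17.1) over 45 pairs of astrocyte genes and 3140 pairs with listed genes, and r was taken again after leaving out 2 libraries, those most distant from the median of 1 gene of the pair. Slopes on each astrocyte gene per SD, differences between identifier formats and differences of slope between formats were fitted across all genes with limma 3.58.1 in R 4.3.3, with Benjamini-Hochberg adjustment and a threshold of 0.05. The 1 library of another identifier form has no place in these fits. Scripts were tested on simulated data. As 1 library stands for each identifier, p-values measure the spread between these samples.

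The 10 genes and the lists were chosen with earlier results of these data known. Named are the 10 genes, genes of the lists, and for each of the 10 the 5 genes with the highest and the 5 with the lowest r among those with the same sign in both formats, of which a selection is given. Alternatives were median-of-ratios scaling, pseudocounts of 0.5 and 5, no filter or a mean of at least 3, normal scores, each format alone, no format covariate, leaving out the 6 libraries with over 100 CPM of Slc17a7 or the 17 with Th that were relabelled or recovered per the labels, and Mbp, Col1a1 or Foxj1 as a covariate.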

Additional observations from a re-analysis of the deposited data

Results flagged for a closer look

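In limma's test of the difference of slope between identifier formats (adjusted over all genes, slopes in log2 units per SD of the gene named last), 7 relations among the 10 genes differed between hexadecimal and decimal libraries. On the level of the connexin 43 gene Gja1, the slope was steeper in hexadecimal than in decimal libraries for Gfap by 0.33 (limma, adjusted p 0.0220), for Aldh1l1 by 0.26 (0.00721), for Aqp4 by 0.21 (0.00779) and for Slc1a3 by 0.11 (0.0147). The correlations behind them were 0.68 in hexadecimal and 0.42 in decimal libraries for Gfap, 0.74 and 0.55 for Aldh1l1, 0.78 and 0.68 for Aqp4, and 0.69 and 0.63 for Slc1a3. The share of all genes whose slope on Gja1 differed was 30.1%.

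On the GLT-1 gene Slc1a2, where the share over all genes was 28.4%, the slope of Slc1a3 differed by 0.13 (limma, adjusted p 0.00942; r 0.64 in hexadecimal and 0.46 in decimal libraries) and that of Aldoc by -0.10 (limma, adjusted p 0.0182; r -0.06 in hexadecimal and 0.46 in decimal libraries). On the GLAST gene Slc1a3, with a share of 28.3%, the slope of S100b differed by -0.12 (limma, adjusted p 0.0344; r 0.35 in hexadecimal and 0.51 in decimal libraries).

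Under median-of-ratios scaling only the relation of S100b with Slc1a3 passed the test among the 7 (limma, adjusted p 0.0455), and with normal scores of the ranks none did. What else differed between libraries of the 2 identifier formats was not tested.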

How the results depend on the processing

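No paired analysis was made, as each identifier has 1 library. Of the values that single correlations took under the alternatives, 2211 kept their side of the threshold (or, for the most alike genes, which have no test, stayed within the confidence interval of r), 45 lost a call, 15 gained one with the same sign, and 148 of the untested ones moved outside that interval. Another sign was found for 41 values, of which 35 belonged to relations called neither in all libraries nor under the alternative. The other 6 were called in at least 1 of these: Gfap with Gjb6 was -0.45 with Col1a1 and -0.25 with Foxj1 as a covariate, Aldh1l1 with Gjb6 was -0.15 and Aldh1l1 with Aldoc 0.021 with Col1a1, Slc1a3 with Sox9 was 0.062 in decimal libraries, and Sox9 with Aldoc was 0.19 under median-of-ratios scaling. Negative pairs among the 10 genes numbered 5, but 2 in decimal libraries and 3 with Mbp as a covariate, and negative pairs with listed genes 311 in decimal libraries.

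Genes called on a slope were fewer in decimal libraries, where there are 53 samples (numbers in all libraries in brackets). They were 7593 for Gfap (11463), 7262 for Aqp4 (12159), 6571 for Aldh1l1 (11679), 3123 for Slc1a2 (8484) and 4041 for Slc1a3 (11894). They were 1908 for Gja1 (9857), 1488 for Gjb6 (3660), 2773 for Sox9 (5943) and 5952 for Aldoc (9626). In hexadecimal libraries they were 2423 for S100b (6036) and 1773 for Gjb6. With Col1a1 as a covariate they were 7168 for Gfap, 5349 for Gja1 and 7196 for Gjb6, and with Foxj1 5959 for Gfap, 4340 for Aldh1l1, 2267 for Gja1 and 5865 for Gjb6. With Mbp they were 9151 for S100b, and under median-of-ratios scaling 6222 for Gja1. Slope differences summed over the 10 genes numbered 25052, against 15337 with normal scores, 16359 with Mbp and 14805 with Foxj1. Under median-of-ratios scaling the medians without Th were 348 CPM for Aqp4, 3073 for Slc1a2, 605 for Slc1a3, 351 for Gja1 and 688 for Aldoc, and the SD of log2(CPM + 1) was 0.24 for Slc1a3 and 0.23 for Aldoc. The lower level of Slc1a2 in hexadecimal libraries lost its call in 5 alternatives (adjusted p 0.0548 to 0.136, limma). The cause of these changes was not tested.

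CPM are shares of a total, so a gene can be higher because others are lower. Low counts did not limit these values, as the lowest median among the 10 genes was 18.5 CPM. None was called with the library total (permutation test, adjusted p at least 0.0768). The number of genes detected had r = 0.44 with Aqp4, 0.39 with Slc1a3, 0.32 with Aldh1l1 and -0.18 with Aldoc, the last not called. The share of counts in the 20 most abundant genes had -0.44, -0.52, -0.40 and 0.19 with these, and 0.34 with Sox9. With Gfap, Slc1a2 and Gja1 that share had -0.33, -0.29 and -0.22, and the number of genes detected had 0.27, 0.24 and 0.28. These were called (permutation test, adjusted p at most 0.0437). Whether such measures account for the correlations was not tested.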
